A study of Arabidopsis thaliana with 6 samples.

Results

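Cytochrome P450 genes were examined in leaves of Arabidopsis thaliana harvested 2 hours after a spray of salicylic acid (SA), the phenolic defence hormone. The members are the genes whose symbol in the array's annotation is CYP followed by 2 or 3 digits, 1 or 2 letters and a number, a form that leaves out the cyclophilins. A total of 22 genes met this rule among 13286 genes measured, and each was represented by 1 probe set. Of these, 18 belong to subfamily CYP71B, and 1 each to CYP51, CYP78, CYP79 and CYP84. RefSeq gives a symbol of the same form to 225 genes, 35 of them in CYP71B, so the measured genes are mainly a view of CYP71B; the others, including CYP71B15 (PAD3), were not analysed here. The annotation used lists 14016 of the 22746 probe sets without controls, or 61.6%, and the other probe sets have signals but no gene name here, so the 22 genes are not the limit of the array.

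Plants of the SA group received 1 mM SA together with 0.01% Silwet, a wetting agent, and plants of the mock group received 0.01% Silwet without SA. Plants of both groups were 3 to 4 weeks old, and the labels name no accession, mutation or transgene. Each group had 3 biological replicates on 1 Affymetrix ATH1 array each, and the labels do not say how many plants a replicate holds. Values are log2 signals from RMA, a method that corrects background, normalises the arrays to each other and combines each set of probes into 1 value. In whole leaves, a lower signal from fewer cells of a type cannot be told apart from less RNA per cell.

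P450 enzymes are haem proteins, mostly of the endoplasmic reticulum, that take electrons from NADPH through a reductase and insert an oxygen atom into their substrate. Plants carry many of them, and the number in the name marks the family and the letter the subfamily. CYP71 is a large plant family of specialised metabolism whose genes often lie side by side; its best known member in Arabidopsis defence is CYP71B15, which makes the indole phytoalexin camalexin. CYP84 and CYP79 enzymes act on phenylpropanoids and on amino acids, CYP51 enzymes on sterols, and CYP78A genes influence organ size.

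The arrays correlated with each other by 0.959 to 0.986 over all probe sets without controls, and their median log2 signals lay between 7.412 and 7.464 in the SA group and between 7.492 and 7.512 in the mock group. Deviations from the group means were shared by SA and mock arrays of equal replicate number, with correlations over all genes of 0.757, 0.479 and 0.559 for numbers 1, 2 and 3. Over the P450 genes alone these correlations were 0.806, 0.113 and 0.684. Over these genes SA replicate 2 correlated more with mock replicate 3 (0.284) than with mock replicate 2. Over all genes SA replicate 2 and mock replicate 3 correlated by 0.152. For SA replicate 2 the pairing by number was thus not specific over the P450 genes. The arrays numbered 1 also stood apart in the dap spike-in control AFFX-DapX-3_at, with log2 signals of 11.42 in SA and 11.52 in mock against 8.269 to 8.443 in the other 4 arrays. The difference between SA and mock was fitted with limma, without the replicate number and again with it as a block, and the change within each pair of equal number is given beside the fits. Calls were made at an adjusted p under 0.05, by the Benjamini-Hochberg method over all 13286 genes. Of 10 listed leaf mesophyll genes 3 had a value, RCA, PRK and LHCB4.2, with mean log2 signals of 14.00, 12.77 and 13.36 in SA leaves, against 13.99, 13.03 and 13.59 in mock leaves. PRK and LHCB4.2 were lower in SA leaves in all 3 pairs (24.7% of all genes), LHCB4.2 with no overlap (SA below mock in 9.45% of all genes). In limma 0 of the 3 passed in either fit. An unadjusted p below 0.05 was reached by 0 of them without the block and by 1, PRK, with it (0.0349), against 24.9% of all genes with it.

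CYP84A4 was the P450 gene called without the block, and it rose. CYP71B23 had the largest positive change of the family, 1.47 log2 units, and 4 genes that follow each other among the measured genes of the same chromosome, CYP71B26, CYP71B34, CYP71B35 and CYP71B36, all had lower signals in SA leaves in each of the 3 pairs. CYP78A9, CYP71B5 and, on chromosome 1, CYP71B28 were lower in each pair as well. Over all genes, 24.7% were lower in all 3 pairs. With the block, CYP84A4 and CYP71B23 rose, and CYP71B26, CYP71B34, CYP71B36, CYP71B5 and CYP78A9 fell. The block fit called 5.15% of all genes as higher and 4.76% as lower.

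In numbers, limma called 1 of the 22 P450 genes, or 4.55%, against 1.63% of all genes; this was a rise (4.55%, against 1.04%), with 0 falls (0.595% of all genes). With the replicate block it called 7 of 22, or 31.8%, against 9.91% of all genes; these were 2 rises (9.09%, against 5.15%) and 5 falls (22.7%, against 4.76%). Both counts moved with the arrays used: the count without the block was 0 when any 1 of the 6 arrays was left out, and the count with it was 3, 5 and 6 without the pairs numbered 1, 2 and 3. Over all 13286 genes the calls fell as well, to between 5 and 57 without 1 array. In the block fits without the pairs numbered 1, 2 and 3 they fell to 404, 813 and 815. An unadjusted p under 0.05 without the block was seen in 7 members, which is 31.8% against 13.8% of all genes. Of these, 2 were higher in SA leaves (9.09%, against 6.42%) and 5 lower (22.7%, against 7.4%). The median change was -0.027 log2 units over the members and -0.0077 over all genes, while the median absolute change was 0.262 over the members and 0.123 over all genes. The 2 groups did not overlap in 5 members (22.7%, against 18% of all genes), 1 with SA above mock (4.55%, against 8.57%) and 4 with SA below (18.2%, against 9.45%). The direction was shared by all 3 pairs in 11 members (50%, against 45.1% of all genes), of which 7 were lower (31.8%, against 24.7%) and 4 higher (18.2%, against 20.4%). The 4 include CYP71B27, whose pair differences were only 0.021, 0.032 and 0.0004. These shares describe the 22 genes, and no test of the family as a group was made.

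**Figure D1:**
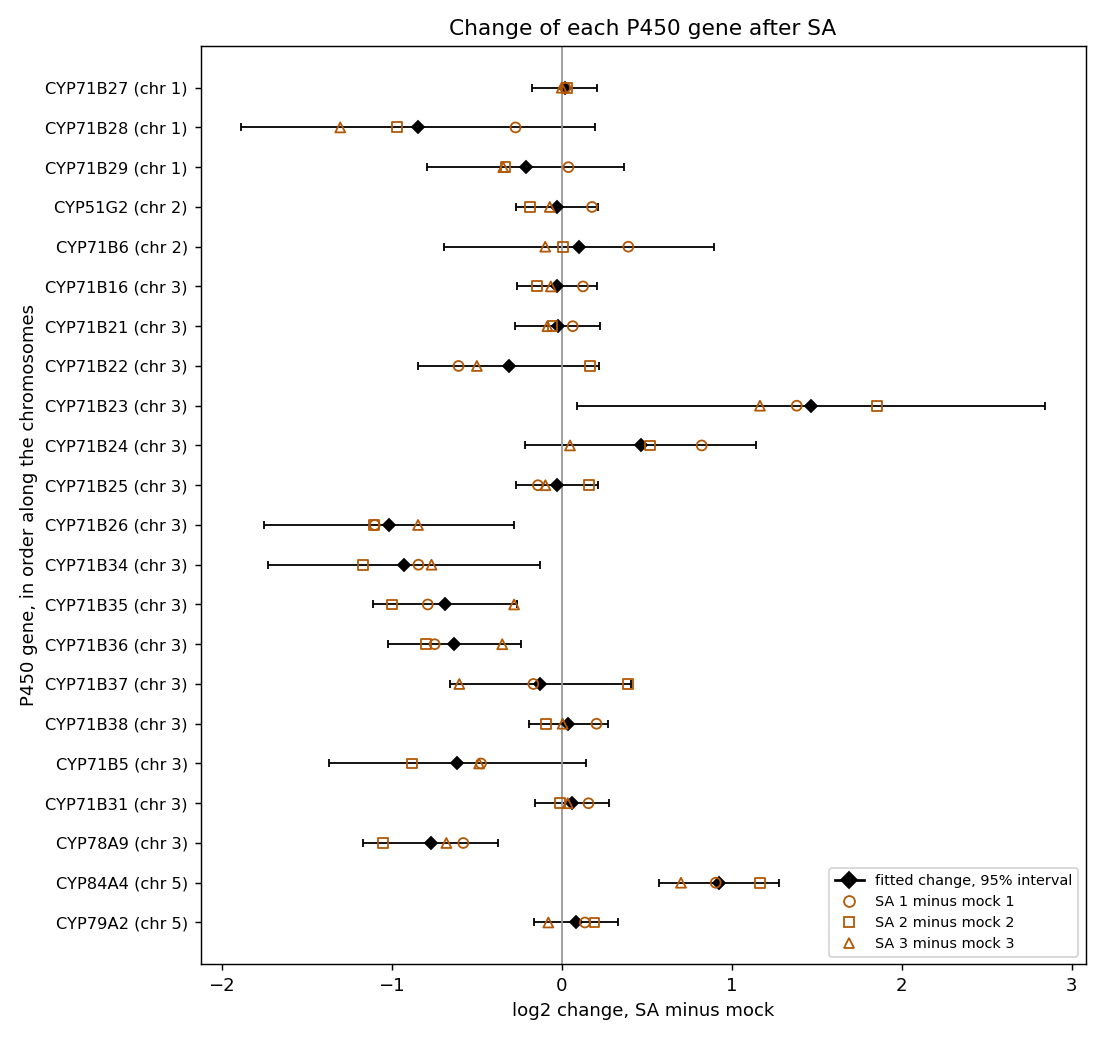
Change of each of the 22 P450 genes, in order along the chromosomes, as log2 signal in SA minus mock leaves. Diamonds are the limma estimates without the replicate block with 95% intervals (n = 3 arrays per group), and open symbols are the differences within the 3 pairs of equal replicate number. CYP71B23 and CYP84A4 lie furthest to the right, and CYP71B26 lies furthest to the left, at -1.02.

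CYP84A4 (AT5G04330) is a relative of the lignin enzyme CYP84A1 that acts in the synthesis of arabidopyrones from phenylpropanoid precursors. Its log2 signal was 7.82, 8.17 and 7.66 in SA replicates 1, 2 and 3, against 6.91, 7.0 and 6.95 in mock replicates 1, 2 and 3. Every SA array lay above every mock array. The change was 0.92 ± 0.15 log2 units (SE, n = 3 arrays per group), a 1.90-fold rise, with a limma adjusted p of 0.0457 without the block and 0.0114 with it. The rise was 0.91, 1.17 and 0.70 in the pairs numbered 1, 2 and 3. The call without the block was close to the threshold and was lost when any 1 of the 6 arrays was left out, where the limma adjusted p lay between 0.0902 and 0.181 and the change between 0.78 and 1.04; the block call was lost without the pair numbered 1 (0.0659). The SA arrays varied more than the mock arrays, with SDs of 0.26 in SA and 0.046 in mock leaves (n = 3 each).

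CYP71B23 (AT3G26210) had log2 signals of 11.82, 10.83 and 10.09 in SA replicates 1, 2 and 3, against 10.44, 8.98 and 8.92 in mock replicates 1, 2 and 3. The groups overlapped, because mock replicate 1 lay above SA replicate 3, but SA was higher within each pair, by 1.38, 1.85 and 1.17. The change of 1.47 ± 0.57 log2 units, or 2.77-fold, had a limma adjusted p of 0.329 without the block and 0.00743 with it. Its SD was 0.87 in SA and 0.86 in mock leaves (n = 3 each), and the standard error was 0.15 with the block. The block call held when any 1 pair was left out, with limma adjusted p-values between 0.0128 and 0.0471. The absolute change of CYP71B23 was larger than that of 99.1% of all genes.

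The neighbouring CYP71B24 (AT3G26230), separated from CYP71B23 in the RefSeq order by CYP71B3, gave 8.85, 8.48 and 7.75 in SA leaves, against 8.02, 7.96 and 7.70 in mock leaves. The pair differences were 0.82, 0.52 and 0.05, so the third pair hardly differed. Its change of 0.46 ± 0.28 did not pass without the block (limma adjusted p = 0.584) or with it (0.150).

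On the other flank of the same run of genes the signals were lower in SA leaves. CYP71B26 (AT3G26290) had 9.74, 9.84 and 9.15 in SA replicates 1, 2 and 3, against 10.84, 10.94 and 9.99 in mock replicates 1, 2 and 3. Every SA array lay below every mock array, and the pair differences were -1.10, -1.10 and -0.84. The change was -1.02 ± 0.30 log2 units, a signal 2.02 times lower in SA leaves, with a limma adjusted p of 0.201 without the block and 0.0063 with it. This block call also held without any 1 pair, with limma adjusted p-values between 0.0171 and 0.0462.

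CYP71B34 (AT3G26300) gave 8.56, 8.05 and 7.65 in SA leaves, against 9.41, 9.21 and 8.41 in mock leaves. SA replicate 1 lay above mock replicate 3, so the groups overlapped, while SA was lower within each pair, with differences of -0.84, -1.17 and -0.77. The change was -0.93 ± 0.33, with a limma adjusted p of 0.286 without the block and 0.0101 with it. The block call was lost without the pair numbered 1 (limma adjusted p = 0.0575).

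CYP71B35 (AT3G26310) gave 6.59, 6.38 and 6.54 in SA leaves, against 7.38, 7.38 and 6.82 in mock leaves, with no overlap. Its change of -0.69 ± 0.17 stayed outside the threshold in both fits (limma adjusted p = 0.139 without the block and 0.0525 with it); with the block it passed without the pair numbered 3 (0.0253), and without the block it passed with array weights (0.0482). CYP71B36 (AT3G26320) gave 6.29, 5.91 and 6.31 in SA leaves, against 7.04, 6.70 and 6.66 in mock leaves, again with no overlap. Its change of -0.63 ± 0.16 passed with the block (limma adjusted p = 0.0325) and did not pass without it (0.143); the block call was lost without the pair numbered 1 or 2 (highest adjusted p = 0.148). In both genes the pair numbered 3 differed least, by -0.28 in CYP71B35 and -0.35 in CYP71B36.

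**Figure D2:**
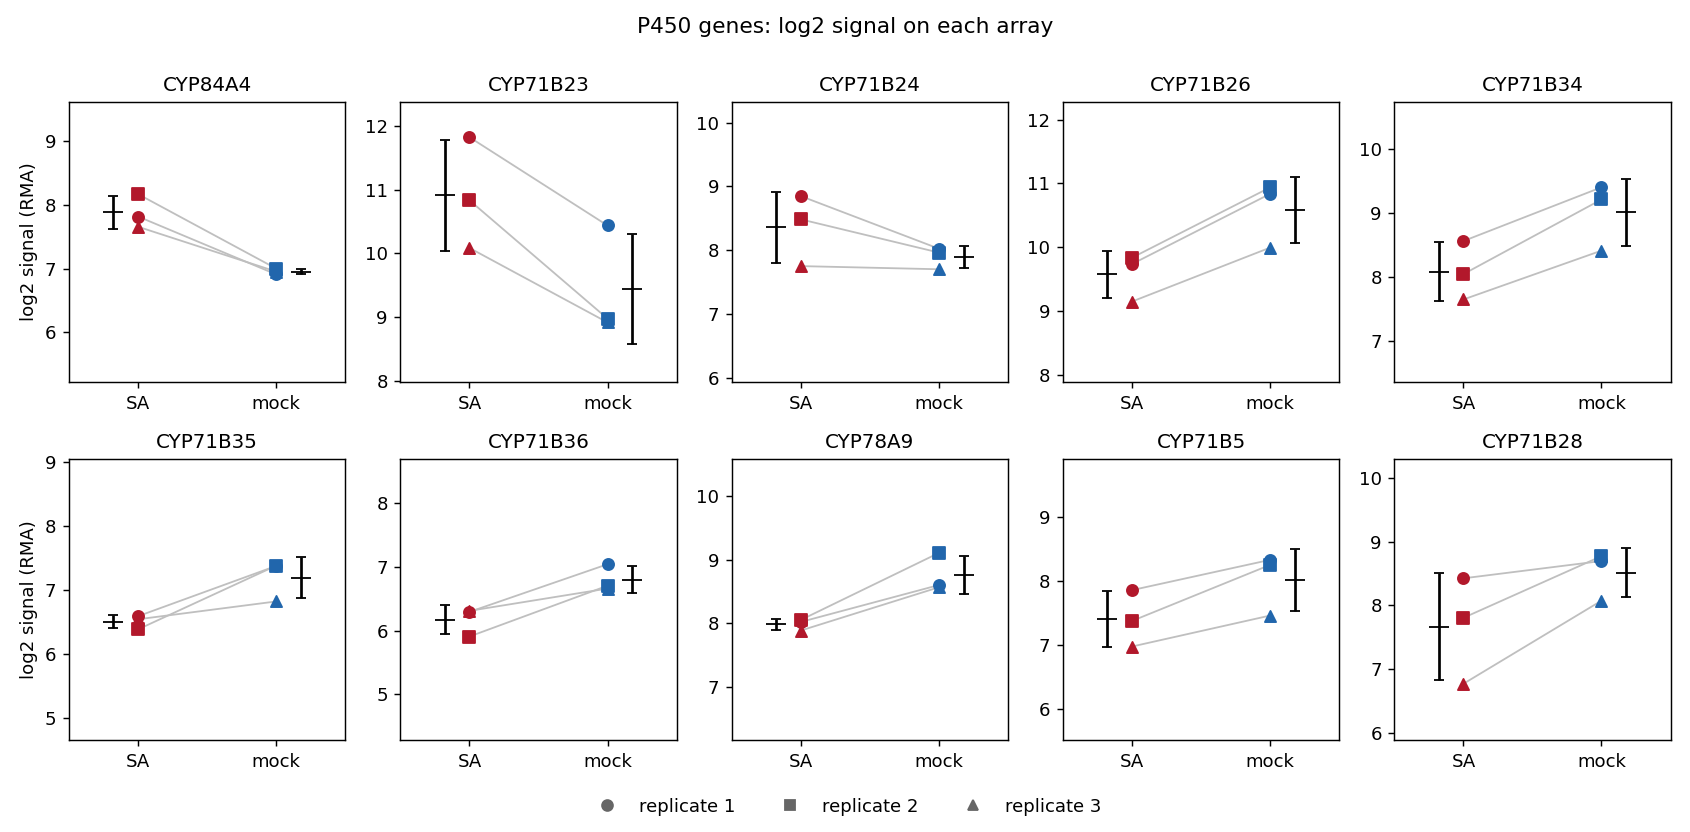
Log2 signal (RMA) of 10 P450 genes on each array, SA left of mock. Symbols mark the replicate number, grey lines join arrays of equal number, and black marks give the group mean and SD (n = 3); each panel spans the same number of log2 units. The SA arrays lie above the mock arrays in CYP84A4 and below them in CYP71B26, CYP71B35, CYP71B36 and CYP78A9, and the lines of CYP71B23 all slope down from SA to mock.

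These genes belong to a run on chromosome 3 that reaches from CYP71B16 (AT3G26150) to CYP71B37 (AT3G26330) and holds 24 genes and pseudogenes in the RefSeq order, 18 of them with a CYP71B symbol, including 2 pseudogenes. Of the 18, 11 had a probe set of their own here. Signals were higher in all 3 pairs in 2 of the 11, CYP71B23 and CYP71B24, and lower in all 3 pairs in 4, CYP71B26, CYP71B34, CYP71B35 and CYP71B36. Over all genes, 20.4% were higher and 24.7% lower in all 3 pairs, so nothing about the run as a whole is read from these counts. The difference between CYP71B23 and CYP71B26 on the same array was 2.08, 1.00 and 0.94 log2 units in SA leaves, against -0.40, -1.96 and -1.07 in mock leaves. Their changes thus differed by 2.48 log2 units. Those of CYP71B23 and CYP71B34 differed by 2.39, and those of CYP71B24 and CYP71B26 by 1.48. These 3 pairs of genes were chosen for their opposite changes, so the differences are a description without a test.

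The 5 other measured genes of the run moved little or not in 1 direction. CYP71B22 (AT3G26200), which lies next to CYP71B23, had 8.61, 9.31 and 9.13 in SA leaves, against 9.22, 9.14 and 9.63 in mock leaves, and pair differences of -0.61, 0.17 and -0.50 (limma adjusted p = 0.668). CYP71B16, CYP71B21, CYP71B25 and CYP71B37 had signals below 5.307, the lower quartile of the gene means over all 13286 genes, and changes of -0.03, -0.02, -0.02 and -0.13. CYP71B37, which follows CYP71B36 directly, had pair differences of -0.17, 0.39 and -0.60. The 2 nearest measured genes before the run, AT3G26130 and AT3G26140, had changes of 0.05 and -0.24. The 2 nearest after it, AT3G26350 and AT3G26360, had changes of 0.10 and 0.03. AT3G26140 was lower in SA leaves in all 3 pairs, with differences of -0.05, -0.39 and -0.28, as were 24.7% of all genes. Limma called none of these 4 without the block or with it (lowest adjusted p = 0.469 and 0.217), and 0 had an unadjusted p below 0.05 in either fit.

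**Figure D3:**
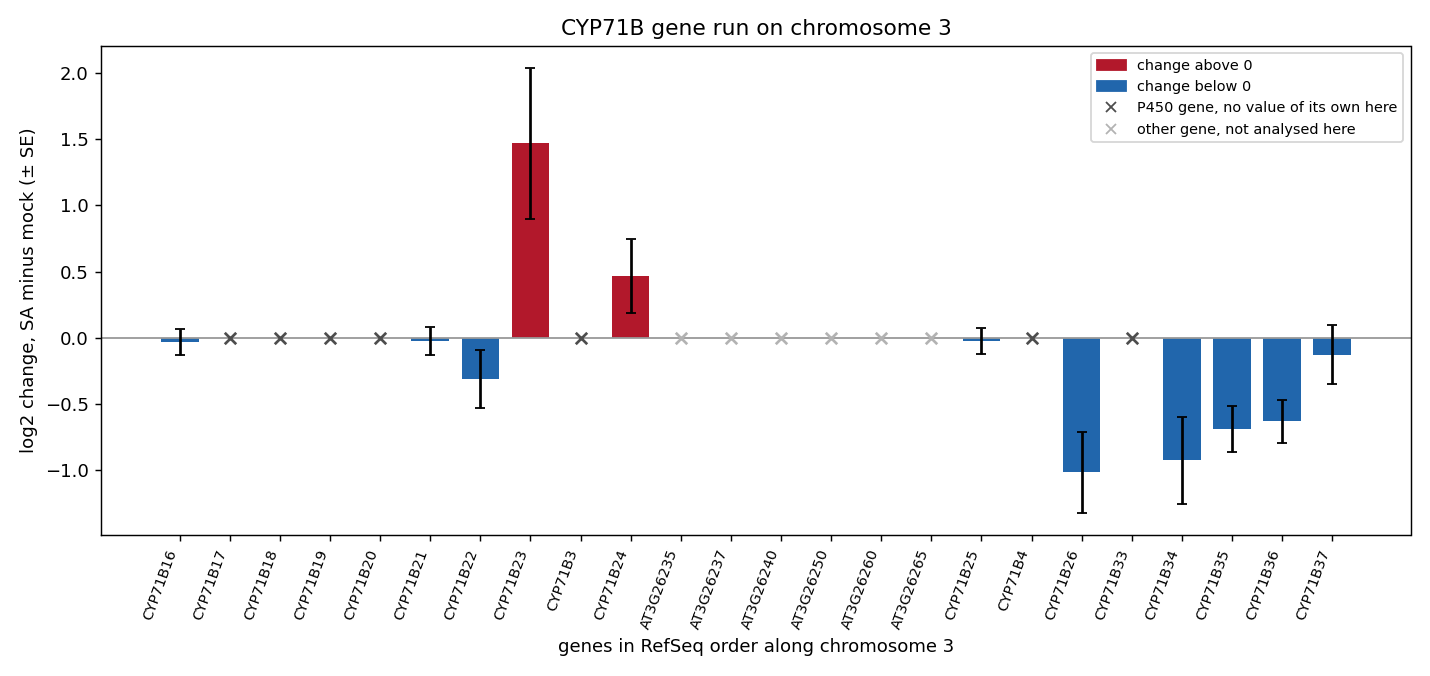
Log2 change (SA minus mock, bars, with the limma standard error without the block, n = 3 arrays per group) of the genes of the CYP71B run on chromosome 3, drawn in RefSeq order and not to genomic distance. Crosses mark genes without a value of their own. CYP71B23 and CYP71B24 have positive changes of 1.47 and 0.46, and CYP71B26, CYP71B34, CYP71B35 and CYP71B36 have negative changes of -1.02, -0.93, -0.69 and -0.63.

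A second group of CYP71B genes lies on chromosome 1. CYP71B28 (AT1G13090) gave 8.42, 7.80 and 6.77 in SA leaves, against 8.69, 8.77 and 8.07 in mock leaves. SA was lower in each pair, with differences of -0.27, -0.97 and -1.30, but the groups overlapped and the SA arrays spread widely (SD 0.83, against 0.38 in mock leaves, n = 3 each). The change of -0.85 ± 0.43 did not pass (limma adjusted p = 0.483 without the block and 0.0644 with it); with the block and without the pair numbered 1 it did (0.0431). Its neighbour CYP71B29 (AT1G13100) had a change of -0.21 ± 0.24 and pair differences of 0.04, -0.33 and -0.34 (limma adjusted p = 0.846). CYP71B27 (AT1G13070), which RefSeq lists as a transcribed pseudogene, stayed between 5.28 and 5.34 on all 6 arrays.

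CYP71B5 (AT3G53280) on chromosome 3 gave 7.86, 7.37 and 6.97 in SA leaves, against 8.33, 8.25 and 7.46 in mock leaves. The groups overlapped, and SA was lower in each pair, with differences of -0.47, -0.88 and -0.49. The change of -0.61 ± 0.31 had a limma adjusted p of 0.484 without the block and 0.0321 with it, and that call was lost whichever pair was left out (0.0684 to 0.0990). CYP71B31 (AT3G53300), a flower-expressed enzyme of linalool oxidation that lies close to CYP71B5, had signals of 3.90 to 4.06 on all arrays and a change of 0.06 ± 0.09. CYP71B38 (AT3G44250) had a change of 0.04 ± 0.10.

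CYP71B6 (AT2G24180), which converts indole-3-acetonitrile to indole-3-carbaldehyde and so acts beside the camalexin pathway, had a high signal and no shared direction. It gave 10.30, 9.52 and 9.13 in SA leaves, against 9.91, 9.51 and 9.23 in mock leaves. The change was 0.10 log2 units with a 95% interval of -0.69 to 0.89 (limma adjusted p = 0.970), and of -0.20 to 0.41 with the block. The values followed the replicate number in both treatments, being highest in number 1 and lowest in number 3. The same order was seen in both groups in CYP71B23, CYP71B24, CYP71B29, CYP71B34 and CYP71B5.

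Among the 18 CYP71B genes the median change was -0.077 log2 units, 12 had a change below 0 and 6 above, and the range reached from -1.02 in CYP71B26 to 1.47 in CYP71B23. Limma called 0 of the 18 without the block (1.63% of all genes), although 5 reached an unadjusted p below 0.05 (13.8% of all genes), and 5 with it (9.91% of all genes), 1 rise (5.15%) and 4 falls (4.76%). The deposited values carry no sequence of the probes, so whether probe sets of such similar genes read each other's transcripts was not tested.

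Outside CYP71, CYP78A9 (AT3G61880), a relative of KLU that promotes fruit and seed growth, was lower in SA leaves. It gave 8.02, 8.05 and 7.89 in SA replicates 1, 2 and 3, against 8.60, 9.10 and 8.57 in mock replicates 1, 2 and 3. The groups did not overlap, and the pair differences were -0.58, -1.05 and -0.68. The change was -0.77 ± 0.16 (limma adjusted p = 0.0904 without the block and 0.0191 with it), and the block call was lost without the pair numbered 1 or 3 (highest adjusted p = 0.0636). Without the block it passed with array weights (0.0430).

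CYP79A2 (AT5G05260), the phenylalanine N-hydroxylase that opens benzylglucosinolate synthesis, had signals of 4.66 to 4.93 in SA leaves and of 4.68 to 4.74 in mock leaves, and a change of 0.08 ± 0.10. CYP51G2 (AT2G17330), a relative of the sterol demethylase CYP51G1, had a change of -0.03 ± 0.10. Including these genes, 8 of the 22 members had a mean signal below the lower quartile, and their changes lay between -0.13 and 0.08. Among the other 14 members the median change was -0.46, with 9 below 0 and 5 above, against a median of -0.028 over all genes at or above that quartile.

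Of 82 listed partner genes of the P450 pathways 6 could be named and given a value here. None of these 6 passed in limma, with the block or without it, and 0 had an unadjusted p below 0.05 without it. With the block 4 of the 6 had one, against 24.9% of all genes. These were ATR3, UGT74B1, HCT and DFR, each lower in SA leaves in all 3 pairs, as were 24.7% of all genes. ATR3, a diflavin reductase of the electron donor list, had signals of 7.11, 7.46 and 7.45 in SA leaves, against 7.41, 7.80 and 7.71 in mock leaves (change -0.30, limma adjusted p = 0.483). UGT74B1, a glucosyltransferase of glucosinolate synthesis, had a change of -0.52, and UGT74C1 and BCAT4 of the aliphatic glucosinolate list had -0.35 and -0.18. HCT and DFR, enzymes of lignin and anthocyanin synthesis, had -0.37 ± 0.22 and -0.39 ± 1.03 (SE without the block, n = 3 arrays per group). The DFR signal spread widely, from 9.29 to 6.53 in SA leaves and from 9.91 to 6.61 in mock leaves. The electron donors ATR1 and ATR2 and the cytochrome b5 genes were not analysed here.

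Of 3 listed root genes, PYK10, a beta-glucosidase of endoplasmic reticulum bodies, was measured. It gave 6.62, 6.52 and 7.80 in SA leaves, against 5.55, 5.00 and 5.44 in mock leaves, a change of 1.65 (limma adjusted p = 0.0978 without the block and 0.0176 with it). Its part in the P450 values was not tested. The guard cell gene FMA and the trichome gene TRY had changes of -0.22 and -0.36, and 0 of these 2 passed in limma in either fit. An unadjusted p below 0.05 was reached by 0 of them without the block and by 1, TRY, with it (0.0360). Over all genes 24.9% reached one with the block.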

How the data were processed

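The deposited table holds log2 signals of 22810 probe sets on 6 arrays, deposited as RMA output (per the submitters' processing notes); the RMA version is not given in the sources used. Leaving out 64 AFFX controls, 13436 probe sets had 1 gene in the platform annotation that matched a RefSeq locus (assembly TAIR10.1, used for names and gene order). At 144 loci with several probe sets the one of highest mean was taken, which gave 13286 genes; each P450 gene had 1 probe set. SA minus mock was fitted on all genes with limma 3.58.1 in R 4.3.3 (lmFit, eBayes, treatment as the only term), two-sided. The block fit adds the replicate number. The 3 same-number correlations over all genes exceeded 0.1, as did that of SA replicate 2 with mock replicate 3 (0.152). The arrays were treated as pairs by their numbers, although the labels do not say what the numbers mark. The block lowered the median residual SD to 0.115, against 0.177 without it, and left 2 residual degrees of freedom, against 4. Each p-value sets the difference between SA and mock against a spread between these arrays. Without the block this is the spread within the groups, and with it the spread left after the replicate numbers are fitted. The eBayes step draws each gene's spread toward a value estimated over all genes, so a p-value does not rest on that gene's arrays alone. The fit without the block was tested on simulated data with errors drawn independently for each array. The deviations shared by equal replicate numbers were not simulated, and the block fit was not tested in this way. Alternatives were other scalings, filters, weights, priors and leaving out arrays. The genes named are all 22 members, and listed partner and marker genes that were measured. The members and lists were chosen with earlier results of these data known. The number of arrays limits the precision.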

Additional observations from a re-analysis of the deposited data

How the results depend on the processing

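The count of P450 genes called, 1 without the block, was 7 with the replicate block, 3 with array weights (CYP84A4, CYP71B35 and CYP78A9), 0 with 32 linear units added and 0 with a trended and robust prior; fits without 1 array gave 0 in every case. For CYP84A4 the limma adjusted p was 0.0653 with the added units and 0.0546 with that prior. Centring the arrays, repeating the quantile normalization, testing only genes at or above the lower quartile or all 22746 probe sets, averaging probe sets and taking RefSeq symbols left the count at 1, CYP84A4. By alternatives chosen after seeing the data, the arrays numbered 2 and 3 alone gave 0, and the block fit without pair 1, 2 or 3 gave 3, 5 or 6. Over all genes the count was 217, against 1316 with the block and 479 with weights, 135 with added units, 151 with the prior, 5 to 57 without 1 array, and 404, 813 and 815 in the block fits without a pair. The causes were not tested.

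Sign changes occurred in genes whose changes without the block were smaller in size than their standard errors. The largest of these changes were 0.10 ± 0.33 in CYP71B6 and -0.13 ± 0.22 in CYP71B37. Centring, which moved the median of all genes by 0.054, gave 0.029 in CYP51G2, 0.026 in CYP71B16, 0.030 in CYP71B21 and 0.029 in CYP71B25, and quantile normalization gave -0.0081 in CYP71B27. Array weights gave 0.037 in CYP71B25, 0.067 in CYP71B37 and -0.013 in CYP71B38. The arrays numbered 2 and 3, with and without the block, gave -0.043 in CYP71B6, 0.032 in CYP71B25 and -0.042 in CYP71B38. The block fit without pair 2 gave 0.055 in CYP51G2 and 0.031 in CYP71B16, and without pair 3 it gave 0.0059 in CYP71B21, 0.010 in CYP71B25 and 0.11 in CYP71B37. Without 1 array the changes ran from -0.081 to 0.028 in CYP51G2, -0.22 to 0.36 in CYP71B6, -0.085 to 0.014 in CYP71B16, -0.099 to 0.028 in CYP71B21, -0.095 to 0.017 in CYP71B25, -0.26 to 0.088 in CYP71B37 and -0.025 to 0.087 in CYP71B38. The other members kept their direction in every fit in which they were tested, apart from CYP71B27 as given.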

Other observations

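Probe sets with a CYP71B, CYP79 or CYP718 name that fall outside the rule were fitted over all 22746 probe sets. Other P450 names outside the rule were not searched. The probe set shared by CYP71B19 and CYP71B20, both of the chromosome 3 run, had log2 signals of 10.56, 10.51 and 10.29 in SA replicates 1, 2 and 3, against 10.13, 10.37 and 9.96 in mock replicates 1, 2 and 3. SA was higher in each pair, with a change of 0.30 ± 0.14 that did not pass (limma adjusted p = 0.427 without the block and 0.131 with it). CYP718, whose name has no subfamily letter, gave 6.02, 6.09 and 5.97 in SA leaves, against 5.78, 5.88 and 6.24 in mock leaves. CYP71B30P, which lies between CYP71B5 and CYP71B31, had a change of 0.035, and the probe set shared by CYP79C2 and AT1G58265 one of -0.083.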
